A study of Homo sapiens with 4 samples.

Results

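The 9 genes described here encode enzymes that make or interconvert amino acids outside the serine pathway: ASNS, PYCR1, ALDH18A1, GPT2, CBS, CTH, GOT1, GLUL and OAT. They were chosen by function and found by name, each on a single row, among 34826 genes of the deposited table. The cells were HCT116, a human colorectal cancer line, whose Ki-67 protein, found in the nuclei of dividing cells, carries a degron (the labels name the line HCT116-Ki-67-mAC-AID). Such a tag marks its protein for destruction when an auxin is present. Both groups carry the tag, 2 control libraries come from cells left untreated, and 2 come from cells given the auxin indole acetic acid (IAA) at 0.5 mM for 24 h. No treated cells without the tag were among the samples, so the auxin and the loss of Ki-67 cannot be told apart. The labels call the replicates biological and name 3 dishes for each, but whether the line is a single clone, or the replicates were grown on separate days, is not given in the sources used here. Because a degron removes protein rather than mRNA, these libraries cannot show whether the treatment worked.

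Non-essential amino acids are built from intermediates of glycolysis and the citric acid cycle, with glutamate and glutamine as the main nitrogen donors. Aspartate and alanine arise by transfer of nitrogen to oxaloacetate or pyruvate, and asparagine arises from aspartate with nitrogen from glutamine. Proline arises from glutamate or ornithine through pyrroline-5-carboxylate, and cysteine arises from homocysteine by transsulfuration. Several of these genes, with ASNS as the classical case, are induced by the transcription factor ATF4 when amino acids are short or when other stresses act on translation, and proliferating tumour cells often depend on them for protein and nucleotide synthesis.

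The promoter of ASNS is shown because ASNS had the lowest fold change of the members, that of GOT1 because it was the other member with a match to the core of the C/EBP-ATF response element (CARE), a sequence that ATF4 can bind, and that of ALDH18A1 because its level was almost the same in both groups. The sequences are RefSeq windows on GRCh38.p14, 300 bases long, from 250 bases before to 50 bases after the annotated start, and all 3 genes lie on the minus strand. Capitals mark matches to TGATGNAA, the CARE core, and to GTTACA, known as nutrient-sensing response element 2 (NSRE-2) in the ASNS promoter. Both strands were searched.
ASNS promoter, chr7:97872359-97872658: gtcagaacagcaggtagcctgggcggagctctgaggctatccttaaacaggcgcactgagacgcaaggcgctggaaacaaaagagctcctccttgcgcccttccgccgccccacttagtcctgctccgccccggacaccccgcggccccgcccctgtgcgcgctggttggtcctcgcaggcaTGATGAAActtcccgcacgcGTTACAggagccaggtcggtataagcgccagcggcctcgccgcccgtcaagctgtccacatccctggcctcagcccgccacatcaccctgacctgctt
GOT1 promoter, chr10:99430575-99430874: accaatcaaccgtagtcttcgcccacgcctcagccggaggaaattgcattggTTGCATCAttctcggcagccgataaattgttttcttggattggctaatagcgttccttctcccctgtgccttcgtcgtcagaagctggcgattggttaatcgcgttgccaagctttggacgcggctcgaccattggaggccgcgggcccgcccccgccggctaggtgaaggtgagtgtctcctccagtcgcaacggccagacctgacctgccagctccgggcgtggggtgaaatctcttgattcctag
ALDH18A1 promoter, chr10:95656662-95656961: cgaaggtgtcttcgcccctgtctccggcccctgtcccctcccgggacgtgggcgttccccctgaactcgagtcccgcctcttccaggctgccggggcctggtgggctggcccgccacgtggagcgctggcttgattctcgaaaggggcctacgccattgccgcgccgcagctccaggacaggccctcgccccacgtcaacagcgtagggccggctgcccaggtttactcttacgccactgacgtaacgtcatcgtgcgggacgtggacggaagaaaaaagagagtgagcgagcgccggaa

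In the ASNS window the match TGATGAAA began 68 bases before the start and GTTACA began 48 bases before it, both on the coding strand. The GOT1 window held TTGCATCA, which reads TGATGCAA on the other strand, beginning 198 bases before the start. A promoter window was found for 7 of the 9 members (ASNS, GOT1, ALDH18A1, OAT, GLUL, CBS and CTH), and ASNS, GLUL and CBS have more than 1 annotated start. None was found for GPT2 and PYCR1, which also had negative fold changes, so matches cannot be set against fold changes over all members. The other ASNS window and every window of ALDH18A1, OAT, GLUL, CBS and CTH held neither motif. The letters TGATGNAA occurred in 3.62% of all 35116 promoter windows of the same length, and GTTACA in 6.66%. Counted by gene, with a match in any window, the shares were 4.46% and 8.07% of 27305 genes. The GC box GGGCGG, bound by Sp1 family factors, occurred in 44.95% of all windows. At least 1 window held it in 48.3% of all genes, and in ASNS, GOT1, OAT, GLUL, CBS and CTH. A match is a run of letters and was not tested for binding, and no match says only that these letters are not in the window.

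**Figure D1:**
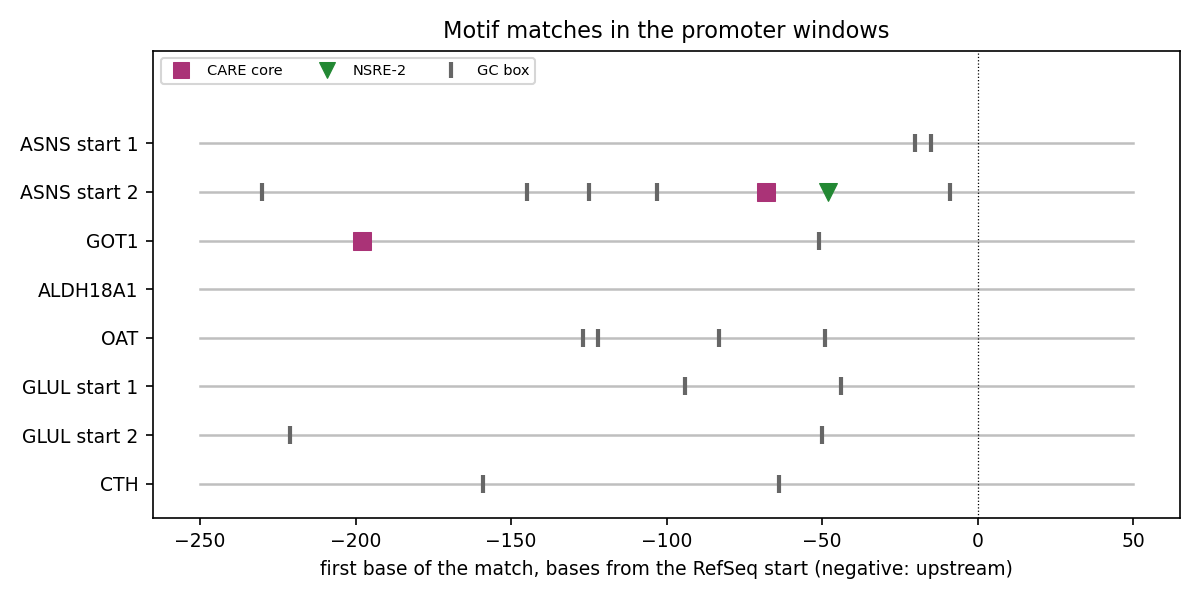
Positions of motif matches in the promoter windows of ASNS, GOT1, ALDH18A1, OAT, GLUL and CTH, with the x axis in bases from the RefSeq start and each grey line a window of 300 bases. The CARE core stands in the ASNS window at 68 bases and in the GOT1 window at 198 bases upstream, and NSRE-2 in the ASNS window at 48 bases upstream.

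The libraries held 38733981 to 49448043 reads on genes, recovered from TPM (reads per base of gene length, scaled to a common sum per library). IAA replicate 1 had the fewest genes above 0, 26245 against 27107 to 28153 in the other 3. Of 9 colorectal epithelial markers 6 had at least 1 TPM in at least 2 libraries, with EPCAM at 466 to 480.02 TPM, while CDX1, VIL1 and LGALS4 reached at most 0.487 TPM. Summed markers of blood were 0.242 to 0.601 TPM and of endothelium 0.349 to 0.495 TPM. The 4 fibroblast markers summed to 13.5 to 14.9 TPM, nearly all from COL1A1, and the 4 hepatocyte markers to 18.99 to 22.9 TPM, mostly from CPS1, while ALB reached at most 0.354 TPM. These 4 sums overlapped between the groups except that of endothelium, which was 0.495 and 0.456 TPM without IAA, and 0.349 and 0.373 TPM with it. Most of the endothelial sum came from VWF, at 0.484 and 0.409 TPM without IAA, and 0.284 and 0.353 TPM with it. PECAM1 was highest in IAA replicate 1, at 0.0651 TPM. The part of the endothelial sum in the results was not tested. In bulk samples, fewer cells that express a gene and less RNA per cell cannot be told apart.

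Of the 9 members, 8 passed the filter of at least 1 TPM in at least 2 libraries, and they passed it in all 4. CBS did not. Values per library separated the 8 into a group with lower values in IAA (ASNS, GPT2, PYCR1 and GOT1) and a group whose values overlapped between conditions (ALDH18A1, OAT, GLUL and CTH). For the 4 of the former kind both IAA libraries lay below both controls, an order seen in 17.7% of all 17896 genes tested. No member had both IAA libraries above both controls, against 11.8% of all genes, but under median-of-ratios scaling OAT and CTH did and GOT1 left the lower group, and with voom ALDH18A1 and OAT did. None of the 8 passed an adjusted p of 0.05 in either direction by limma, where 0% of genes were called higher and 0% lower over the whole table, and none did by limma voom on recovered reads. At an unadjusted p under 0.05, ASNS and GPT2 were lower and no member was higher, against 2.61% of all genes lower and 1.54% higher. This count of 2 members became 0 without control replicate 1, 1 without IAA replicate 1, 4 without IAA replicate 2 and 1 with the replicate number as a block. The median log2 fold change over the 8 was -0.07, beside -0.02 over all genes tested.

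**Figure D2:**
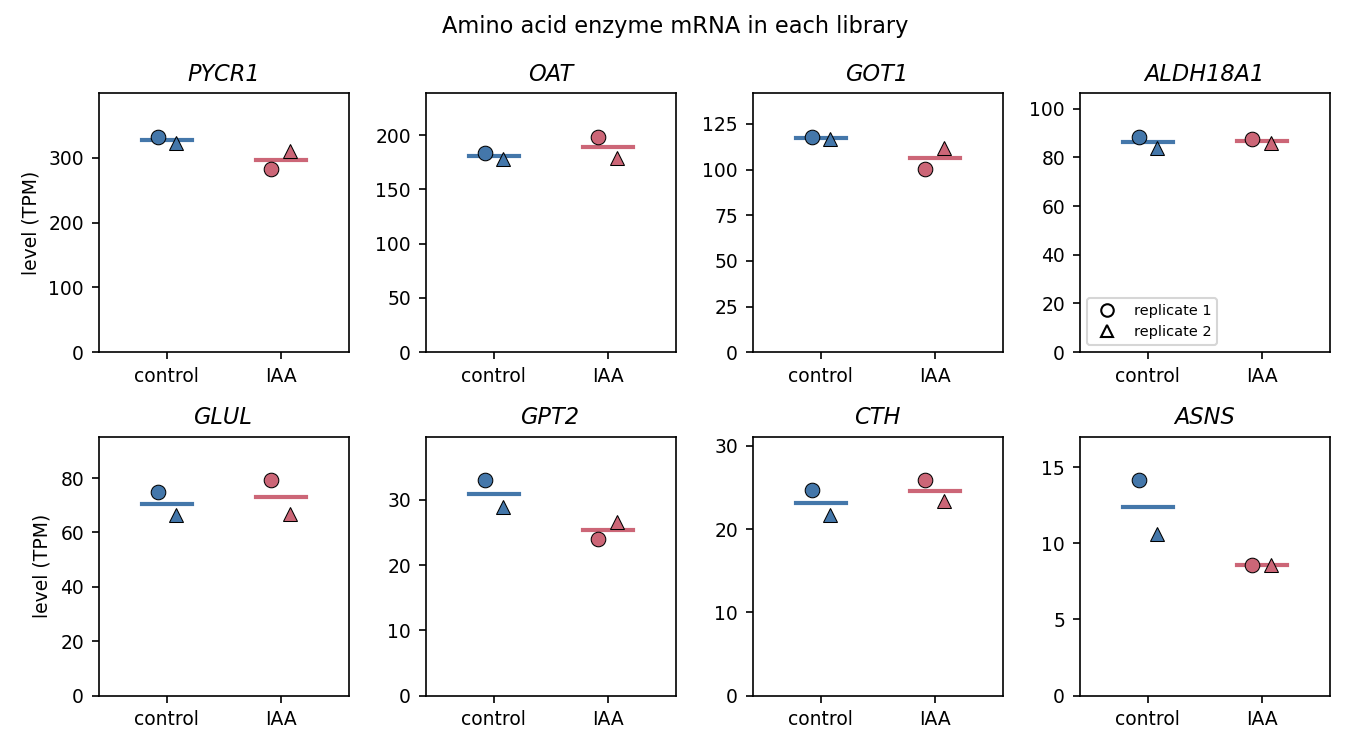
Level in TPM of the 8 measured enzymes in each library, one panel per gene with its own linear axis from 0, circles for replicate 1, triangles for replicate 2 and bars for the group mean (n = 2). In the panels of ASNS, GPT2, PYCR1 and GOT1 both IAA points lie below both control points, and in the other 4 panels the groups overlap.

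In the control means the levels in TPM had the order PYCR1, OAT, GOT1, ALDH18A1, GLUL, GPT2, CTH and ASNS. CBS was left out because its count is uncertain. TPM divides by a single length per gene, from 2414 bases for CTH to 9032 bases for GLUL, so the order depends on these lengths. The level of ASNS is uncertain too, as given below. Neighbours in this order did not overlap over the 4 libraries, except GPT2 and CTH, for which the lowest GPT2 value of 24.02 TPM lay below the highest CTH value of 25.9 TPM. These 8 members had the same order in the IAA means.

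ASNS encodes asparagine synthetase, which uses glutamine to turn aspartate into asparagine (ENSG00000070669.16, GRCh38 chromosome 7, 97852118 to 97872542, minus strand). ASNS measured 14.1 TPM in control replicate 1 (control 1 from here on), 10.6 TPM in control 2, and 8.56 TPM in IAA 1 and in IAA 2. Behind these levels stood 739, 731, 453 and 489 reads, in the same order. The controls were spread and the IAA libraries were not, and the groups did not overlap. Group means were 12.4 ± 2.52 TPM without and 8.56 ± 0.00162 TPM with IAA (SD, n = 2), so that the difference of 3.80 TPM between the groups was close to the gap of 3.57 TPM between the controls. The 95% exact Poisson intervals, which cover counting error only, were 9.82 to 11.4 TPM in control 2, above 7.79 to 9.38 TPM in IAA 1 and 7.82 to 9.36 TPM in IAA 2. On the scale of log2(TPM + 1) ASNS differed by -0.47 (standard error 0.15, 95% interval -0.84 to -0.10, limma unadjusted p = 0.0219, adjusted p = 0.999). Only 3.38% of genes tested had a fold change as low or lower. Without control 1 the fold change was -0.28. With protein-coding genes alone the adjusted p of ASNS was 0.0436, in a fit whose prior degrees of freedom became infinite, and over the 11 alternatives its adjusted p ranged from 0.0436 to 0.99996.

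Part of the ASNS transcript sequence is also annotated in another gene. Of the 150-base windows in ASNS transcripts of GENCODE release 29, 34.8% also occur in AC079781.5, a non-coding transcript gene on the same strand whose span covers ASNS. AC079781.5 itself had 40 to 55 reads per library, against 453 to 739 for ASNS. How the authors counted reads that fall in both genes is not given in the sources used here, so the level of ASNS is uncertain, and the effect on the comparison was not tested. The pseudogenes ASNSP3, ASNSP4 and ASNSP6 had at most 1 read in any library.

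GOT1 encodes the cytosolic aspartate aminotransferase, which makes aspartate in the cytosol and takes part in the malate-aspartate shuttle (ENSG00000120053.11, chromosome 10, 99396870 to 99431569, minus strand). GOT1 measured 118 TPM (control 1), 117 TPM (control 2), 100.3 TPM (IAA 1) and 112 TPM (IAA 2). Both IAA libraries were below the controls, IAA replicate 2 by little. Group means were 117 ± 0.867 TPM without and 106 ± 8.22 TPM with IAA (SD, n = 2), and the difference of 11.3 TPM was smaller than the gap of 11.6 TPM between the IAA libraries. On the log2 scale GOT1 differed by -0.15 (95% interval -0.35 to 0.05, limma adjusted p = 0.999), and -0.07 without IAA 1. Of its 150-base windows 15.5% also occur, on the opposite strand, in AL391684.1, which had 95 to 123 reads per library against 4016 to 6107 for GOT1. GOT2, its mitochondrial counterpart, stood at 93.9 and 92.1 TPM without IAA, and at 96.7 and 97.6 TPM with it, both above both controls (log2 fold change 0.06, 95% interval -0.11 to 0.23). The ratio of GOT1 to GOT2 was 1.26 and 1.27 without IAA, and 1.04 and 1.15 with it.

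GPT2 encodes the mitochondrial alanine aminotransferase, which makes alanine from pyruvate and glutamate and returns 2-oxoglutarate to the citric acid cycle (ENSG00000166123.13, chromosome 16, 46884378 to 46931297, plus strand). GPT2 measured 33.04 TPM (control 1), 28.9 TPM (control 2), 24.02 TPM (IAA 1) and 26.7 TPM (IAA 2). The groups did not overlap, and IAA replicate 1 was the lowest library. Group means were 31.0 ± 2.93 TPM without and 25.4 ± 1.89 TPM with IAA (SD, n = 2), a difference of 5.61 TPM against gaps of 4.15 TPM between the controls and 2.67 TPM between the IAA libraries. Its log2 fold change was -0.28 (standard error 0.11, 95% interval -0.54 to -0.01, limma unadjusted p = 0.0415, adjusted p = 0.999), and it was -0.18 when control 1 was left out. The 150-base windows of GPT2 occur in no other annotated gene. GPT, the cytosolic enzyme, was near the filter, with 1.58 and 1.29 TPM without IAA, and 1.19 and 0.736 TPM with it.

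PYCR1 encodes the mitochondrial pyrroline-5-carboxylate reductase that completes proline synthesis (ENSG00000183010.16, chromosome 17, 81932384 to 81942412, minus strand). It had the highest TPM of the members, and measured 333 TPM (control 1), 323 TPM (control 2), 282 TPM (IAA 1) and 309.7 TPM (IAA 2). Both IAA libraries lay below both controls, and IAA replicate 1 was again the lowest. Group means were 328 ± 6.97 TPM without and 296 ± 19.4 TPM with IAA (SD, n = 2). The difference of 31.7 TPM exceeded the gap of 27.5 TPM between the IAA libraries by little. On the log2 scale PYCR1 differed by -0.15 (95% interval -0.33 to 0.04, limma adjusted p = 0.999), and -0.08 without IAA 1. Part of its 3′ side is overlapped on the other strand by the antisense gene AC145207.4, which holds 6.37% of the PYCR1 windows. Without stated use of strand in the counting, reads of PYCR1 and AC145207.4 cannot be told apart. MYADML2, on the same strand as PYCR1, holds 4.81% of the PYCR1 windows and had 1 to 6 reads per library. AC145207.4 measured 34.3 TPM (control 1), 35.96 TPM (control 2), 42.65 TPM (IAA 1) and 30.2 TPM (IAA 2), the highest value being in the library where PYCR1 was lowest. AC145207.4 had 174 to 251 reads per library, against 9677 to 14450 for PYCR1, and its part in the PYCR1 values was not tested.

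PYCR3, the cytosolic reductase, stood at 16.6 and 15.4 TPM without IAA, and at 13.9 and 16.3 TPM with it, which overlapped.

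ALDH18A1 encodes pyrroline-5-carboxylate synthase, which turns glutamate into the precursor of proline and ornithine (ENSG00000059573.8, chromosome 10, 95605929 to 95656706, minus strand). ALDH18A1 measured 88.5 TPM (control 1), 83.9 TPM (control 2), 87.6 TPM (IAA 1) and 85.7 TPM (IAA 2), so that both IAA values stood between the controls. The means were 86.2 ± 3.29 and 86.7 ± 1.32 TPM (SD, n = 2). The estimated log2 fold change was 0.01 (95% interval -0.17 to 0.19, limma adjusted p = 0.999). PYCR1 and ALDH18A1 act in the same route, and the ratio of PYCR1 to ALDH18A1 was 3.76 and 3.85 without IAA, and 3.22 and 3.61 with it.

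OAT encodes ornithine aminotransferase, a mitochondrial enzyme that links ornithine to pyrroline-5-carboxylate (ENSG00000065154.11, chromosome 10, 124397303 to 124418976, minus strand). OAT measured 184 TPM (control 1), 178 TPM (control 2), 199 TPM (IAA 1) and 179 TPM (IAA 2). IAA replicate 1 was the highest library and IAA replicate 2 lay between the controls. OAT differed by 0.06 on the log2 scale (95% interval -0.13 to 0.26, limma adjusted p = 0.999), and -0.01 without IAA 1.

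GLUL encodes glutamine synthetase, which joins ammonia to glutamate (ENSG00000135821.18, chromosome 1, 182381704 to 182392206, minus strand). GLUL measured 74.9 TPM (control 1), 66.3 TPM (control 2), 79.2 TPM (IAA 1) and 66.7 TPM (IAA 2). The gaps within the groups, 8.58 TPM between the controls and 12.6 TPM between the IAA libraries, were larger than the distance between the means of 70.6 ± 6.07 and 72.95 ± 8.90 TPM (SD, n = 2). For GLUL the log2 fold change was 0.04 (95% interval -0.23 to 0.32, limma adjusted p = 0.999). Its pseudogene GLULP4 had 1 to 4 reads per library.

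CTH encodes cystathionine gamma-lyase, the last enzyme of transsulfuration, which releases cysteine (ENSG00000116761.11, chromosome 1, 70411218 to 70439851, plus strand). CTH measured 24.7 TPM (control 1), 21.6 TPM (control 2), 25.9 TPM (IAA 1) and 23.3 TPM (IAA 2), on 700 to 810 reads. The groups overlapped, with means of 23.2 ± 2.19 and 24.6 ± 1.80 TPM (SD, n = 2). CTH differed by 0.08 on the log2 scale (95% interval -0.18 to 0.35, limma adjusted p = 0.999), and -0.01 without control 2. In ALDH18A1, OAT, GLUL and CTH alike, replicate 1 was above replicate 2 in both groups. The median-of-ratios factors of the whole libraries had the same order, 1.04 and 0.977 in the controls, and 1.02 and 0.974 with IAA. How many other genes share this order was not counted, and the labels do not say that a replicate number marks a shared day.

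CBS encodes cystathionine beta-synthase, the enzyme that precedes CTH in transsulfuration (ENSG00000160200.17, chromosome 21, 43053191 to 43076943, minus strand). A single read was counted for CBS in control replicate 1 (0.0126 TPM) and 0 reads in the other 3 libraries, where a count of 0 allows up to 0.0285 TPM (control 2), 0.0372 TPM (IAA 1) and 0.0345 TPM (IAA 2), the value of 3 counts. GRCh38 holds a near-identical gene, CBSL, at 6444869 to 6468040 on the same chromosome, which was not analysed here. Of the 7412 windows of 150 bases in CBS transcripts 46.9% also occur in CBSL transcripts, against 0% of the transcript windows of ALDH18A1, OAT, GPT2, GLUL and CTH that occur in any other gene. Within annotated CBS coding sequences the share was 85.9%. Whether reads that match several places were counted is not given in the sources used here. A low level of CBS mRNA and a loss of shared reads in the counting cannot be told apart here. No fold is given, since every library was at or under the limit of 3 counts.

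**Figure D3:**
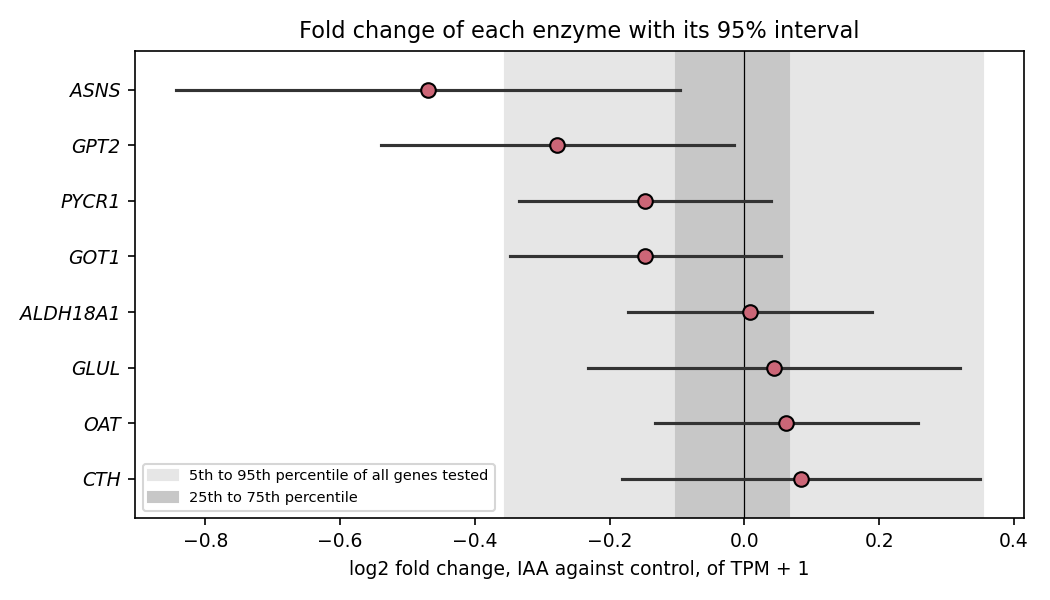
Log2 fold change of TPM + 1, IAA against control, for the 8 measured enzymes, with points for the estimate and lines for the 95% interval of the limma fit (n = 2 per group). The intervals of ASNS and GPT2 lie below 0 before adjustment over all genes, and the ASNS estimate of -0.47 lies outside the pale band that holds the middle 90% of all genes tested.

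Other genes of the same pathways were taken from a textbook list of 52, of which 48 were in the table and 40 passed the filter. None of the 40 passed the adjusted threshold in either direction by limma, and none had an unadjusted p under 0.05. Of these genes 23 had negative and 17 had positive fold changes, with a median of -0.01. Both IAA libraries lay below both controls for 7 of the 40 and above both for 5, near the 17.7% and 11.8% of all genes.

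Among aspartate and asparagine genes other than the members, 3 of 8 had negative fold changes. ASNSD1, a gene with an asparagine synthetase domain, averaged 62.04 ± 2.62 TPM without and 67.0 ± 5.69 TPM with IAA (SD, n = 2), and SLC25A13, a mitochondrial carrier of aspartate and glutamate, had 12.4 ± 1.49 and 11.4 ± 0.325 TPM. Of the 7 proline and ornithine genes 6 were negative. ARG2, the mitochondrial arginase, stood at 17.1 and 19.4 TPM without IAA, and at 16.2 and 15.7 TPM with it. ALDH4A1, which oxidises the proline precursor back to glutamate, had 11.8 ± 0.652 and 11.0 ± 2.09 TPM, and PRODH, which starts proline breakdown, did not pass the filter. ODC1, which commits ornithine to polyamines, had 303 ± 10.5 and 296 ± 6.83 TPM, and ASL, argininosuccinate lyase, 35.99 ± 0.135 and 36.1 ± 5.13 TPM.

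The mitochondrial pyruvate carrier subunits, which feed the alanine route, had similar values in both groups. MPC1 averaged 25.8 ± 0.399 TPM without and 24.9 ± 1.07 TPM with IAA (SD, n = 2), and MPC2 had 52.4 ± 1.34 and 53.6 ± 2.36 TPM. Of 6 glutamine and glutamate genes 4 were negative. CAD, which uses glutamine to begin pyrimidine synthesis, stood at 42.6 and 37.1 TPM without IAA, and at 35.7 and 35.95 TPM with it. SLC25A22, a mitochondrial glutamate carrier, had 30.8 ± 2.05 and 29.5 ± 3.35 TPM, and GLUD1, glutamate dehydrogenase, 147 ± 3.08 and 144 ± 1.15 TPM.

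Of 16 sulfur amino acid genes 8 were negative and 8 positive. MPST, which takes sulfur from the cysteine product mercaptopyruvate, averaged 34.1 ± 0.683 TPM without and 31.4 ± 3.77 TPM with IAA (SD, n = 2). SQOR, which oxidises hydrogen sulfide in mitochondria, stood at 8.20 and 8.06 TPM without IAA, and at 9.43 and 9.83 TPM with it, or 0.22 higher in log2 (95% interval -0.05 to 0.49, limma adjusted p = 0.999). TST, a sulfurtransferase that acts after SQOR, stood at 50.8 and 55.04 TPM without IAA, and at 55.6 and 62.7 TPM with it. For both genes the IAA libraries were above both controls. TST overlaps MPST on the opposite strand, and reads of this pair may not be told apart.

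**Figure D4:**
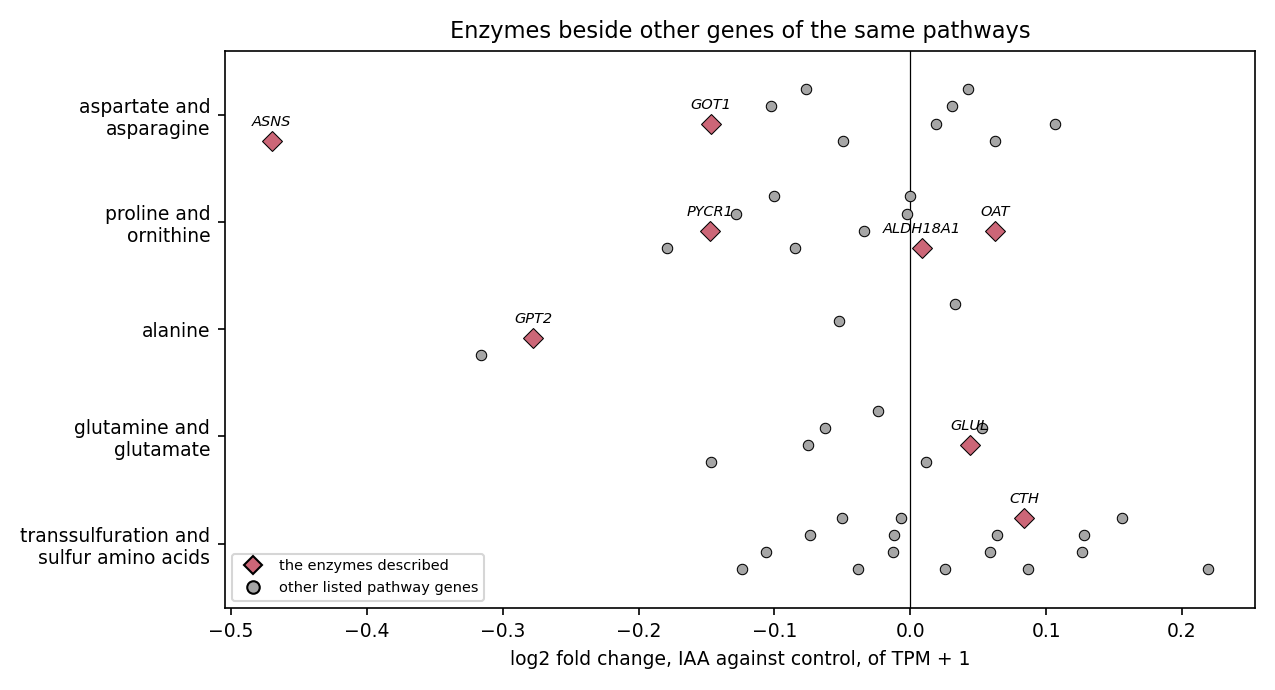
Log2 fold change of TPM + 1, IAA against control, for the 8 measured enzymes (diamonds) and 40 other genes of their pathways (circles), 1 row per pathway, with the vertical scatter within a row only separating points. ASNS at -0.47 lies farthest from 0, GPT lies beside GPT2 in the alanine row, and SQOR at 0.22 is the circle farthest to the right.

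ATF4, the regulator shared by several members, measured 725 TPM (control 1), 719 TPM (control 2), 627 TPM (IAA 1) and 678 TPM (IAA 2). Its log2 fold change was -0.15 (95% interval -0.32 to 0.03, limma adjusted p = 0.999). As with GPT2, PYCR1 and GOT1, both IAA libraries were below both controls, an order seen in 17.7% of all genes tested. In ATF4 and these members IAA replicate 1 was the lowest library. ALDH18A1, OAT, GLUL and CTH overlapped between the groups. Whether ATF4 mRNA and the members are linked here was not tested. The 5 genes nearest to the mean profile of the 8 members over the 4 libraries, out of 9589 with a mean of at least 10 TPM, were NLGN2, PGS1, GRIPAP1, KLHL18 and BRD2, at Euclidean distances of 0.00858 to 0.0123 on the centred log2 scale. Relative to its own mean over the 4 libraries, the profile of the members was 0.12 in control replicate 1, -0.02 in control replicate 2, -0.04 in IAA replicate 1 and -0.06 in IAA replicate 2. With 4 libraries many genes have a like profile, and the mean profile joins members whose own profiles differ.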

How the data were processed

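Oligo-dT-enriched RNA of 4 HCT116 samples was sequenced in pairs of 150 nt, per the labels. The authors deposited TPM values per gene. According to the submitters' processing notes, featureCounts 1.5.2 and DESeq2 1.20.0 were used on hg38 (GRCh38.p12), with no roles stated. Aligner, strand setting and treatment of shared reads: not given in the sources used here. TPM multiplied by gene length was a whole multiple of 1 step per library for 100% of genes (tolerance 1e-06), and the multiples were taken as reads.

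The comparison of IAA with control used trended eBayes of limma 3.58.1 (R 4.3.3) on log2(TPM + 1), which understates the change of low genes. A gene entered if 2 or more libraries reached 1 TPM, leaving 17896. P-values are two-sided, Benjamini-Hochberg adjusted over all of them, and called at 0.05. The scripts were tested on simulated data with a single spread setting for all genes, which does not show how small a change could be detected here. Promoters came from RefSeq. Gene positions, identical to those of the table for the members, and transcripts came from GENCODE release 29.

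The members, lists, motifs and alternatives were chosen with earlier results of these data known. The text names all members, ATF4, listed isoenzymes and partners (not all are reported here), and in each pathway up to 2 further genes of largest absolute fold change. AGXT, AGXT2, ARG1 and CBSL of the pathway lists and the markers TTR and CD3E were not analysed here.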

Additional observations from a re-analysis of the deposited data

How the results depend on the processing

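ASNS, GPT2, PYCR1 and GOT1 kept negative fold changes under all 11 alternatives (voom on recovered reads, a pseudocount of 0.1, no filter, a mean of at least 5 TPM, median-of-ratios scaling, protein-coding genes alone, the replicate block and each library left out). The median over the 8 members ranged from -0.10 to -0.04. With single libraries removed, log2 fold changes spanned -0.0302 to 0.0468 for ALDH18A1, -0.0794 to 0.167 for GLUL, -0.00889 to 0.176 for CTH and -0.0115 to 0.136 for OAT, and 7 of the 8 members were negative without control replicate 2 or without IAA replicate 1. Over the whole table voom and the filter at a mean of 5 TPM each called 1 gene higher and 0 lower. Protein-coding genes alone gave 12 higher and 25 lower, ASNS among the latter. With single libraries removed there were 0 to 707 higher and 0 to 573 lower calls, with no member among them: 117 and 310 without IAA replicate 1, 707 and 573 without IAA replicate 2, and 0 without either control. The cause of these differences was not tested. The prior degrees of freedom were infinite for protein-coding genes alone and without either IAA library, and any lone library is taken to share the spread of the other group. With the replicate number as a block 0 genes were called in each direction, and ASNS stood at -0.47 with an adjusted p of 0.941 by limma. Deviations of equally numbered libraries correlated at -0.07 across 17896 genes and at 0.10 across the 9597 that averaged 10 TPM or more, and the labels name no shared batch, so the numbers were not taken to pair the samples. Each of the 8 members had at least 453 reads per library, and 2 libraries per group limit the precision.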
